A study of Mus musculus with 275 samples.

Results

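The HS4 mice descend from a heterogeneous stock founded on C57BL/6J, DBA/2J, BALB/cJ and LP/J and were bred for a High (responsive) or a Low (non-responsive) cataleptic response to haloperidol, a D2 dopamine receptor blocker. Striatal RNA of 96 HS4 mice, 48 labelled High and 48 labelled Low, was measured on Illumina arrays, 1 array per animal, beside 83 arrays of an F2 and 96 arrays of an HS-CC selection bred in the same way. The F2 was an intercross of C57BL/6J and DBA/2J, and the HS-CC stock came from the founder strains of the Collaborative Cross. Neither the animals' age nor the time since any haloperidol dose was stated in the sources used. The HS4 arrays were chosen by their level of Thumpd1 and not by their line labels, because the labels did not match the values: the labelled sex matched the split of the Y-linked transcript Eif2s3y on 41 of the 96 arrays. Arrays below 9.65 on the log2 scale of the deposited intensities formed the Thumpd1-low group and arrays above it the Thumpd1-high group. Since the groups were selected on Thumpd1, its own levels are a description, and every p-value below is a test of association with Thumpd1 level across mice, some of which may be relatives, and not a test of selection or of treatment.

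THUMPD1 is a protein with a THUMP RNA-binding domain. In human and yeast cells it serves as the partner through which the acetyltransferase NAT10 places N4-acetylcytidine on tRNA, a mark that stabilises serine and leucine tRNAs. In the mouse the gene lies on chromosome 7, among neighbours that include Crym, which codes for the thyroid hormone binding protein mu-crystallin, a transcript that is abundant in striatum. In a heterogeneous stock, transcripts whose level depends on a nearby sequence variant fall into discrete levels, and neighbouring transcripts tend to be inherited together.

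All values of Thumpd1 came from a single probe of 50 bases, so the first 30 of its bases are printed, as the sequence on which the split rests. They were decoded from the probe identifier in the study's supplementary table, and the probe's place within the transcript was not determined.
Thumpd1 probe (chromosome 7): gtccctactggctatttgccagttgtacag

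Of the 96 arrays, 4 were left out because their mean correlation with the other HS4 arrays, 0.525 to 0.74, lay over 2.5 SD below the mean. Their Thumpd1 values were 9.17, 9.24, 9.90 and 10.30, with 7.4% to 22.2% of probes above background, against 29.9% to 59.1% on the other arrays. The 92 arrays kept comprised 38 Thumpd1-low and 54 Thumpd1-high arrays. In the Thumpd1-low group the level ran from 8.97 over a median of 9.05 to 9.47, and in the Thumpd1-high group from 9.86 over a median of 10.82 to 11.78. The groups did not overlap, as the rule fixes. Background was set for each array from its probes for chemosensory receptors (smell, pheromone and taste), at their 95th percentile. Thumpd1 was not above it on any of the 38 low arrays and was above it on all 54 high arrays, so that the low group gives a bound only. On a log2 scale Thumpd1 was at least 3.11-fold higher in the high group, from a mean of 10.86 ± 0.35 (SD, n = 54) against a floor of 9.22, and the measured low mean was 9.06 ± 0.08 (SD, n = 38).

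The high group was divided further at the widest gap near the median of the values above the threshold. This rule makes 3 levels in any selection, so their number is not a result. In HS4 the gap lay between 11.07 and 11.39, with 47 kept arrays below it (9.86 to 11.07, median 10.78) and 7 above it (11.39 to 11.78, median 11.61). A wider gap, between the kept arrays at 9.86 and 10.23, lay outside that search. Nearest to the threshold stood 3 low arrays at 9.11, 9.14 and 9.47 and 3 high arrays at 9.86, 10.23 and 10.33. The highest low array and those 3 high arrays, with values of 9.47 to 10.33, had mean correlations of 0.862 to 0.945 and 29.9% to 49.6% of probes above background, against medians of 0.962 and 55.3% over all kept arrays. The part of array quality in their intermediate values was not tested. F2, cut in the same way, had 21 kept arrays at 8.82 to 9.02, 36 at 10.28 to 10.83 and 23 at 11.15 to 11.57. In HS-CC 10 kept arrays lay at 9.09 to 9.17 and the others between 10.34 and 11.56. There the cut between the middle and highest levels fell in a gap of only 0.15, from 10.88 to 11.03. Levels were not compared between selections, which were normalized separately.

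**Figure D1:**
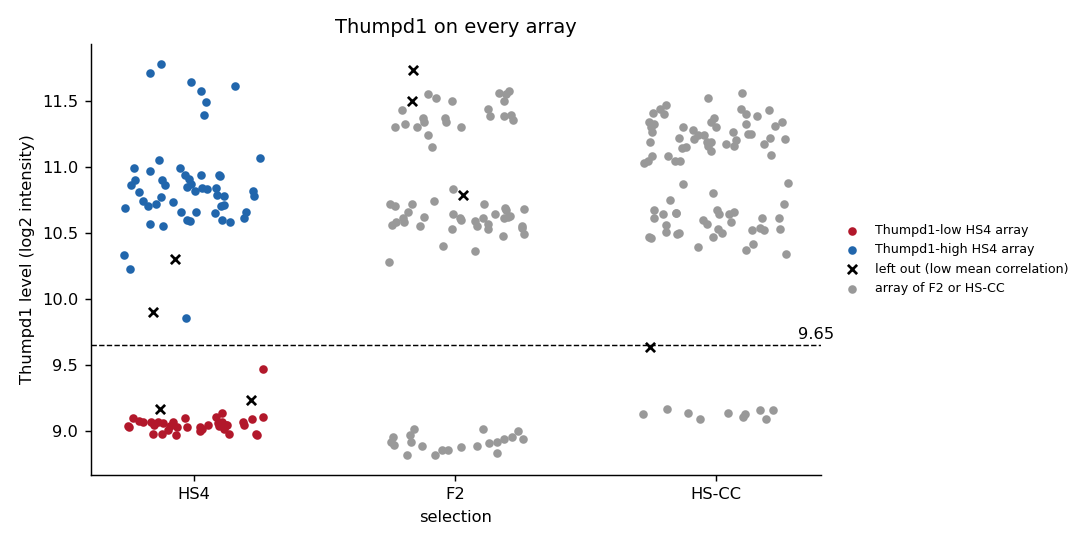
Thumpd1 level (log2 intensity, vertical axis) of every array in the HS4, F2 and HS-CC selections, each point 1 array, with crosses for arrays left out. The 38 low HS4 arrays lie at 8.97 to 9.47, below the dashed threshold of 9.65, and the 54 high arrays at 9.86 to 11.78.

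The Thumpd1 split cut across the labels of line and family. These labels come from the same sample titles as the sex labels, which did not match the values. The true line and family make-up of the groups is therefore not known. Of the low arrays 22 were labelled High and 16 Low, and of the high arrays 23 were labelled High and 31 Low. Of the 32 labelled families with a kept array, 4 held low arrays alone, 5 held high arrays alone and 23 held both. Eif2s3y was on the high side of its split on 17 of 38 low arrays and 28 of 54 high arrays. Array quality was alike in both groups, with a median mean correlation of 0.961 in the low and 0.962 in the high group and a median of 55.3% of probes above background in both.

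Across the rest of the transcriptome the Thumpd1 groups differed little. Over 15218 expressed probes, 4 passed an adjusted p of 0.1 (limma, Benjamini-Hochberg), 0.0263% of those tested. The transcripts Ccng2, Rbbp9 and Snx5 were higher and Pop7 was lower in the Thumpd1-low group. At an unadjusted p under 0.05 there were 1276 probes, 8.38% of those tested, of which 517 were lower and the others higher in the low group, and the median difference over all probes was 0.003. Since this is bulk tissue, fewer cells of a type and less RNA per cell cannot be told apart for any of these transcripts.

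Ccng2 codes for cyclin G2, an atypical cyclin linked to cell cycle arrest. Its level ran from 10.11 over a median of 11.49 to 12.50 on the low arrays and from 10.02 over a median of 10.72 to 12.42 on the high arrays. The ranges overlapped almost wholly, yet 32 of 38 low arrays lay above the median of the high group. The difference was 0.51 ± 0.114 (SE; limma adjusted p = 0.0874), the largest in size among the called probes. Within the high group the middle and the highest Thumpd1 levels had Ccng2 medians of 10.73 and 10.70, close to each other and below the 11.49 of the low arrays.

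Rbbp9 codes for a serine hydrolase first found as a partner of the retinoblastoma protein. It ran from 11.08 over a median of 11.81 to 12.19 on the low arrays and from 10.62 over a median of 11.48 to 12.13 on the high arrays. The high arrays spread further downwards, and 34 of 38 low arrays lay above the high group's median. The difference was 0.32 ± 0.066 (SE; limma adjusted p = 0.0401).

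Snx5 codes for a sorting nexin that takes part in endosome-to-Golgi retrieval. The called probe was dim, from 9.11 over a median of 9.36 to 9.61 on the low arrays and from 9.06 over a median of 9.23 to 9.51 on the high arrays, and it was above background on 36 of 38 low and 30 of 54 high arrays. The difference of 0.11 ± 0.022 (SE; limma adjusted p = 0.0319) was the best supported and the smallest of the called differences, and 33 of 38 low arrays exceeded the high group's median. A second, brighter Snx5 probe gave 0.25 ± 0.085 (SE; limma adjusted p = 0.391), the same direction without passing the threshold.

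Pop7 codes for a protein subunit of RNase P and RNase MRP, the enzymes that trim precursor tRNA and precursor rRNA. Its level ran from 9.13 over a median of 9.96 to 10.20 on the low arrays and from 9.74 over a median of 10.07 to 10.67 on the high arrays. Of the low arrays 33 of 38 lay below the high group's median, and the difference was -0.18 ± 0.040 (SE; limma adjusted p = 0.0874). Pop7 and Ccng2 both lie on chromosome 5, over 20 Mb apart, and correlated at r = -0.37 over the 92 arrays.

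**Figure D2:**
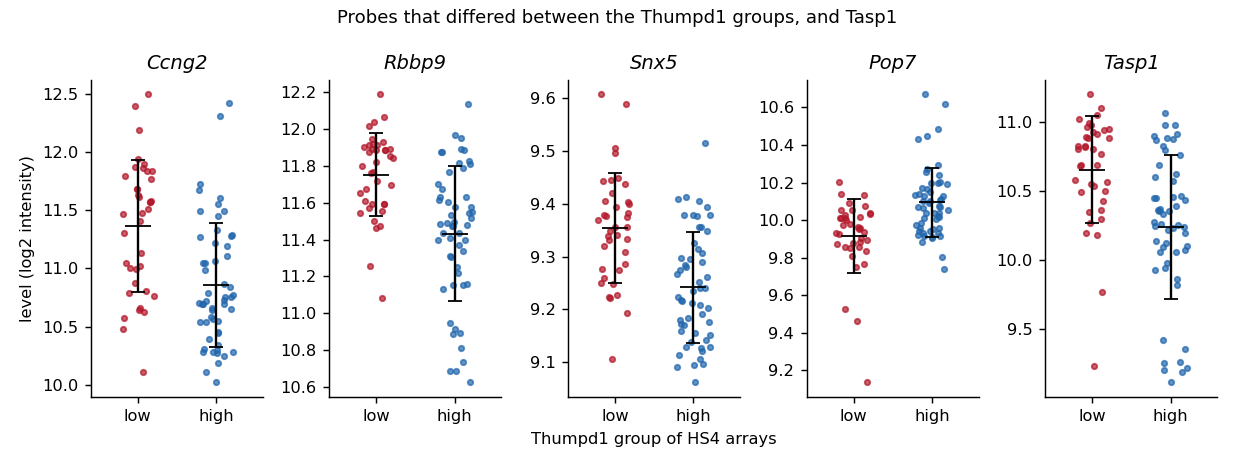
Level (log2 intensity) of the 4 called probes and of Tasp1 on the 38 Thumpd1-low and 54 Thumpd1-high HS4 arrays, each point 1 array, with the bar and whiskers giving the mean and SD. The groups overlap for every gene, with differences of 0.51 for Ccng2, 0.32 for Rbbp9, 0.11 for Snx5, -0.18 for Pop7 and 0.42 for Tasp1. The axes do not start at 0.

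Snx5 and Rbbp9 are near neighbours on chromosome 2, 4 places apart in the order of expressed genes. This neighbourhood was looked at after the calls were seen, so its counts are a description. Within 5 Mb of Snx5, 46 probes of 31 genes were expressed, 37 with a higher and 9 with a lower mean in the Thumpd1-low group. At an unadjusted p under 0.05 there were 8 probes (17.4%), all higher, against 8.45% of 1124 probes on the rest of chromosome 2. Tasp1, a threonine protease that cleaves KMT2A, lay 7 places before Snx5. It ran from 9.24 over a median of 10.78 to 11.20 on the low arrays and from 9.11 over a median of 10.27 to 11.07 on the high arrays, a difference of 0.42 ± 0.098 (SE; limma adjusted p = 0.163). Ndufaf5, an assembly factor of respiratory complex I, was its neighbour and differed by 0.42 ± 0.141 (SE; limma adjusted p = 0.373) on 1 probe and by 0.03 ± 0.042 on the other. The other probes under 0.05 belonged to Dstn (an actin-depolymerising factor, 0.09), Dtd1 (a D-aminoacyl-tRNA deacylase, 0.14) and Sec23b (a COPII coat subunit, 0.08).

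These chromosome 2 transcripts varied together among HS4 mice whatever their Thumpd1 group. Pairwise correlations of Snx5, Rbbp9, Tasp1 and Ndufaf5 were 0.68 to 0.87 over the 92 arrays, 0.44 to 0.80 within the 38 low arrays and 0.69 to 0.87 within the 54 high arrays. The arrays share a normalization, and no p is given. In the F2 the same pairs correlated at 0.71 to 0.97 over 80 arrays and in HS-CC at 0.08 to 0.76 over 95 arrays. The slope of Rbbp9 on Thumpd1 was -0.19 ± 0.034 (SE) in HS4, against -0.04 ± 0.043 in F2 and -0.03 ± 0.039 for HS-CC mice, and that of Snx5 was -0.06 ± 0.012, -0.02 ± 0.017 and -0.02 ± 0.020. The differences between HS4 and either other selection did not pass the threshold for Rbbp9 (limma adjusted p = 0.266 and 0.394) or for Snx5 (0.354 and 0.596).

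**Figure D3:**
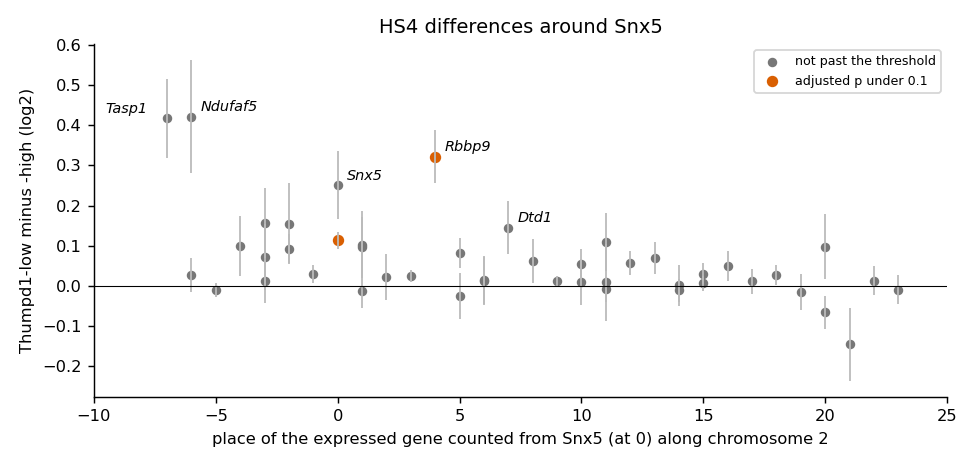
Difference of the Thumpd1-low minus the Thumpd1-high group (log2, points with SE) for the 46 expressed probes within 5 Mb of Snx5, in the order of genes along chromosome 2. 1 Snx5 probe and Rbbp9 passed the threshold (orange), Tasp1 and Ndufaf5 differed by 0.42 without passing it, and 37 of the 46 probes lie above 0.

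The neighbours of Thumpd1 on chromosome 7 did not follow its level in HS4. Within 5 Mb, 55 probes of 42 genes were expressed, none was called, and 1 (1.82%) had an unadjusted p under 0.05, against 8.38% of all probes. That probe was 1 of 2 for Tmem159, a lipid droplet assembly factor, at -0.09 ± 0.035 (SE; limma adjusted p = 0.462). Across the 10 nearest expressed genes on each side (27 probes) differences ran from -0.20 to 0.09 with a median of -0.009. With 95% intervals, 54 of the 55 probes had a difference smaller than 0.5 in size, Gde1 being the exception. This bound is wide: the called differences of Rbbp9 (0.32), Snx5 (0.11) and Pop7 (-0.18) were smaller. Neighbour differences of that size are not excluded by it. No neighbour was called under any of the 26 other settings of the fit, some of which repeat the main split.

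Crym ran from 11.16 over a median of 12.51 to 13.59 on the low arrays and from 11.29 over a median of 12.42 to 13.35 on the high arrays. Its difference was -0.01 ± 0.114 (SE; 95% interval -0.23 to 0.21; limma adjusted p = 0.994), and it correlated with Thumpd1 at r = 0.01. The thyroid hormone list, which holds Crym, had 8 expressed genes of 11 and no call. Lcmt1, the methyltransferase of protein phosphatase 2A, gave -0.03 ± 0.083, 0.04 ± 0.044 and -0.06 ± 0.060 (SE) on its 3 probes. Acsm4 and Acsm1, medium-chain acyl-CoA synthetases on one side of Thumpd1, differed by 0.01 and 0.03, and Eri2, an exonuclease on the other side, by -0.03. Farther away, none of 272 probes at 5 to 20 Mb was called (5.88% at an unadjusted p under 0.05), nor any on the rest of chromosome 7 (8.21%). Uqcrc2, a core subunit of respiratory complex III, differed by 0.08 ± 0.082 (SE).

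Several of these neighbours varied widely among HS4 mice without following Thumpd1. One Gde1 probe, for a glycerophosphodiesterase, ran from 9.05 over a median of 13.06 to 13.71 on the low arrays and from 10.21 over a median of 13.11 to 13.94 on the high arrays, with a difference of -0.20 ± 0.189 (SE; limma adjusted p = 0.825). Over the 92 arrays this probe correlated with Thumpd1 at 0.16 and with an array's mean correlation at 0.90, and its low values lay on arrays of low mean correlation. For the mitochondrial glutamyl-tRNA synthetase gene Ears2 these correlations were -0.16 and -0.85, and for the orphan receptor gene Gprc5b 0.09 and 0.80. The part of array quality in the spread of these transcripts was not tested.

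In the other selections, whose arrays the split did not use, neighbours did follow Thumpd1. With the labelled line as a covariate, the slope on Thumpd1 passed the threshold for 30 of 15299 probes in F2 (0.196%), 23 of them on chromosome 7 and 4 within 5 Mb. In HS-CC 35 of 15118 probes passed (0.232%), 14 on chromosome 7 and 4 within 5 Mb. With the labelled line as a covariate, HS4 had 2 calls among 15218 probes (0.0131%, Snx5 and Rbbp9), none on chromosome 7. Without that covariate there were 3 in HS4, Tasp1 being the third, 167 in F2 and 116 in HS-CC. In F2 the lowest Thumpd1 level held 19 High and 2 Low arrays and the highest 1 High and 22 Low. In HS-CC the lowest held 10 High and 0 Low arrays. The F2 and HS-CC counts without the covariate therefore mix Thumpd1 level with line. At an unadjusted p under 0.05 there were, with the covariate in every selection, 17.2% of neighbouring probes in F2 (9.16% of all probes), 14.5% in HS4 (12.4% of all) and 27.6% in HS-CC (7.59% of all). Slopes of single probes below are with the covariate in F2 and HS-CC and without it in HS4, and every test of a difference between selections had it in all 3. Since the HS4 labels may not match the arrays, the covariate may not remove line in HS4.

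The neighbours that followed Thumpd1 elsewhere did not all do so in 1 direction. Rps15a, a protein of the small ribosomal subunit, had a slope of 0.19 ± 0.023 (SE) in F2, -0.22 ± 0.043 in HS-CC and -0.01 ± 0.042 in HS4. Its medians over the lowest, middle and highest Thumpd1 levels were 9.75, 10.01 and 10.26 in F2, 10.49, 10.25 and 10.17 in HS-CC and 10.60, 10.80 and 10.58 in HS4. These medians are not adjusted for line, which went with Thumpd1 level in F2 and HS-CC. The HS4 slope of Rps15a did not pass the test of a difference from F2 (limma adjusted p = 0.145) or from HS-CC (0.124). Tmc7, a transmembrane channel-like protein, had slopes of 0.17 ± 0.020 in F2, -0.19 ± 0.041 in HS-CC and -0.04 ± 0.025 in HS4. Its HS4 slope differed from that of F2 by -0.21 ± 0.039 (SE; limma adjusted p = 0.00299) and from that of HS-CC by 0.15 ± 0.043 (adjusted p = 0.117). A probe of the centriolar gene Ccp110 followed Thumpd1 in F2 (0.16 ± 0.023), as did Gprc5b (-0.08 ± 0.017). In HS4 their slopes were -0.03 ± 0.049 and 0.03 ± 0.034, and neither difference between HS4 and F2 passed (limma adjusted p = 0.218 and 0.265). The other Ccp110 probe had a slope of -0.013 ± 0.023 in F2 and was not called. A single Gde1 probe followed Thumpd1 in HS-CC (0.43 ± 0.050) with 0.16 ± 0.099 in HS4. This difference of -0.26 ± 0.116 did not pass (limma adjusted p = 0.534). The other Gde1 probes had HS-CC slopes of 0.041 ± 0.035 and 0.041 ± 0.025 and were not called. Ears2 rose by 0.06 ± 0.014 in HS-CC against -0.03 ± 0.021 in HS4, and this difference of -0.10 ± 0.027 passed (limma adjusted p = 0.0818). Over all 13993 probes expressed in the 3 selections, slopes differed between HS4 and F2 for 7 (0.05%) and between HS4 and HS-CC for 33 (0.236%).

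**Figure D4:**
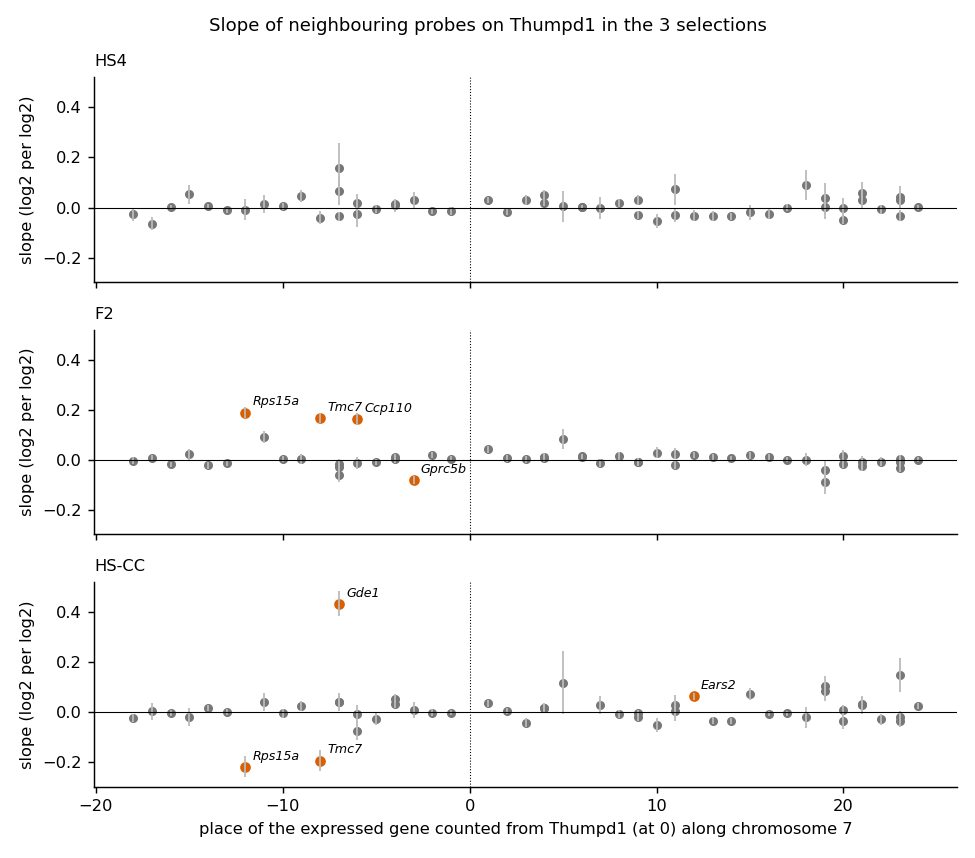
Slope of each expressed probe within 5 Mb of Thumpd1 on the Thumpd1 level (log2 per log2, points with SE) in HS4 (no covariate), F2 and HS-CC (labelled line as covariate), in the order of genes along chromosome 7. Orange points passed an adjusted p of 0.1, which 4 probes did in F2, 4 in HS-CC and none in HS4, and Rps15a and Tmc7 lie above 0 in F2 and below 0 in HS-CC.

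The 4 transcripts called in HS4 were expressed in both other selections and passed the threshold in neither. Ccng2 had a slope of -0.27 ± 0.061 (SE) on Thumpd1 in HS4, 0.19 ± 0.057 in F2 (limma adjusted p = 0.231) and 0.00 ± 0.085 for HS-CC mice. The difference between HS4 and F2 was -0.46 ± 0.091 (SE; limma adjusted p = 0.00589), and in F2 the Ccng2 medians were 11.12, 11.13 and 11.58 from the lowest to the highest Thumpd1 level. These F2 medians are not adjusted for line: the lowest level held 19 High and 2 Low arrays and the highest 1 High and 22 Low. Pop7 had slopes of 0.09 ± 0.022 in HS4 and 0.00 in each of the others.

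The transcripts most like Thumpd1 over the 92 HS4 arrays were, by the size of Pearson's r, Snx5 (-0.51), Rbbp9 (-0.49), Tasp1 (-0.43), Ccng2 (-0.41), Ddit3 (0.40), a probe with no gene name (0.40), Pop7 (0.39), Ubxn2b (-0.38), Gpm6a (-0.38) and Ndufaf5 (-0.38). None of the 9 probes with a known position came from chromosome 7. That chromosome held 1082 of the 15218 probes tested, so that 9 probes are too few to show an absence. These values carry the step between the groups. Within the 54 high arrays alone r was -0.30 for Snx5, -0.24 for Rbbp9, -0.03 for Ccng2 and -0.07 for Pop7. Ddit3, the stress-induced transcription factor CHOP, ran from 9.43 over a median of 10.45 to 10.81 on the low arrays and from 10.01 over a median of 10.64 to 11.28 on the high arrays, a difference of -0.21 ± 0.050 (SE; limma adjusted p = 0.191). Its second probe gave -0.13. Gpm6a, a neuronal membrane glycoprotein, ran from 9.39 over a median of 9.96 to 10.58 on the low arrays and from 9.29 over a median of 9.73 to 10.45 on the high arrays, and 30 of 38 low arrays lay above the high group's median (difference 0.20 ± 0.055, limma adjusted p = 0.277).

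Transcripts of the pathway in which THUMPD1 acts were not called, but only 0.0263% of all probes were, so a list of this size would rarely hold a call. Of 45 genes of tRNA modification on the array 38 were expressed, by 61 probes, with a median difference of -0.002 against 0.003 over all probes. Nat10, the acetyltransferase partner, was among the 7 not expressed by the rule used here. At an unadjusted p under 0.05 there were 7 probes (11.5%, against 8.38% of all probes), 6 of them lower in the Thumpd1-low group. They included the tRNA guanine methyltransferase Trmt1 at -0.12 ± 0.038 (SE; limma adjusted p = 0.367), the cytosine methyltransferase Nsun3 at 0.08 ± 0.025 (0.367) and the wobble uridine thiolase subunit Ctu2 at -0.09 ± 0.031 (0.422). The others were Trmu, a mitochondrial tRNA thiouridylase (-0.07), Dus3l, a dihydrouridine synthase (-0.12 and -0.03 on 2 of its probes), and Mettl1, a 7-methylguanosine methyltransferase (-0.07). The related gene Thumpd3 differed by 0.05 ± 0.043. Of 19 expressed aminoacyl-tRNA synthetase genes none was called, with a median difference of -0.034, and of 34 expressed ribosomal protein genes none was called, with a median of 0.012.

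No marker transcript of a cell type was called either. Of 16 spiny neuron markers 15 were expressed, with a log2 summed level of 16.60 to 18.30 on the low and 17.15 to 18.25 on the high arrays. Markers of other cell types were as widely expressed by this rule, so the share does not test the striatal label. The D2 receptor gene Drd2 differed by -0.15 ± 0.123 (SE; limma adjusted p = 0.781). Markers of cortical glutamatergic neurons, 10 of 10 expressed, ranged from 12.89 to 15.47 (median 14.20) on the low and from 12.78 to 15.82 (median 14.46) on the high arrays, and the vesicular glutamate transporter gene Slc17a7 differed by -0.49 ± 0.243 (limma adjusted p = 0.592). Choroid plexus markers, 7 of 10 expressed with Folr1, F5 and Tmem72 not expressed, ranged from 12.11 to 16.34 (median 12.70) and from 12.11 to 16.18 (median 12.90), and 2 of their 7 probes, Aqp1 and Otx2, had an unadjusted p under 0.05 with differences of 0.08 and 0.13 (28.6% of the list, against 8.38% of all probes). The choroid plexus probes had a median difference of 0.13 (-0.09 to 0.22), against 0.003 over all probes. Immediate early genes, which report activity and not a cell type, had a median of 0.103 (-0.03 to 0.19), with no probe under 0.05. Of 14 astrocyte probes, with differences of -0.05 to 0.12 and a median of 0.010, 3 were below 0.05 (21.4%, against 8.38% of all probes), all higher in the low group, 2 of them for the glutamate transporter gene Slc1a2 at 0.11 ± 0.044 and 0.08 ± 0.035 and 1 for the gap junction gene Gja1 at 0.12 ± 0.055. The third Slc1a2 probe gave -0.02. Of 12 microglial probes 2 were below 0.05 (16.7%, with a list median of 0.009), the lysosomal protease gene Ctss at 0.22 ± 0.088 and the complement gene C1qa at -0.11 ± 0.047. Summed astrocyte markers ranged from 16.20 to 16.76 on the low and from 16.17 to 16.69 on the high arrays, and summed microglial markers from 13.76 to 14.58 and from 13.73 to 14.69. No member of any of the 17 lists was called, which is near the 0.0263% called of all probes and says little about the lists. The part of composition in the called differences was not tested.

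The count of calls depended on a few arrays and on the terms in the fit. With all 96 arrays no probe passed (smallest limma adjusted p = 0.334, with 4.69% of probes at an unadjusted p under 0.05), although the 4 named differences kept their directions (Ccng2 0.50, Rbbp9 0.36, Snx5 0.10, Pop7 -0.12). Within labelled High and labelled Low arrays alone no probe passed (2.94% and 9.39% of probes at an unadjusted p under 0.05), and the differences in the 2 sets were 0.36 and 0.27 for Rbbp9, 0.12 and 0.10 for Snx5, 0.44 and 0.60 for Ccng2 and -0.13 and -0.23 for Pop7. With an array's mean correlation as a covariate 18 probes passed (15% of probes at an unadjusted p under 0.05). With its share of probes above background 17 passed (14.4% at that p), and with the first principal component 17 (15.6%). The 4 transcripts were among those that passed each time, and 10 gene names were shared by the 3 counts. With the first 5 principal components as covariates none passed (557 at an unadjusted p under 0.05). In a setting chosen after the data had been seen, leaving out the 4 arrays at 9.47 to 10.33 gave 18 calls, all 4 transcripts among them. There 14.2% of probes had an unadjusted p under 0.05. Comparing arrays within labelled families (family as a fixed block), also chosen then, gave none (smallest limma adjusted p = 0.98, with 3.91% of probes at an unadjusted p under 0.05). Its differences were 0.30 for Rbbp9, 0.10 for Snx5, 0.36 for Ccng2 and -0.16 for Pop7. Comparing the low arrays with the 47 arrays of the middle Thumpd1 level alone, also chosen then, gave none (smallest adjusted p = 0.11, with 7.52% of probes at an unadjusted p under 0.05). The line and family labels of HS4 may not match the arrays. Fits that use them may therefore not compare arrays within true lines or families.

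**Figure D5:**
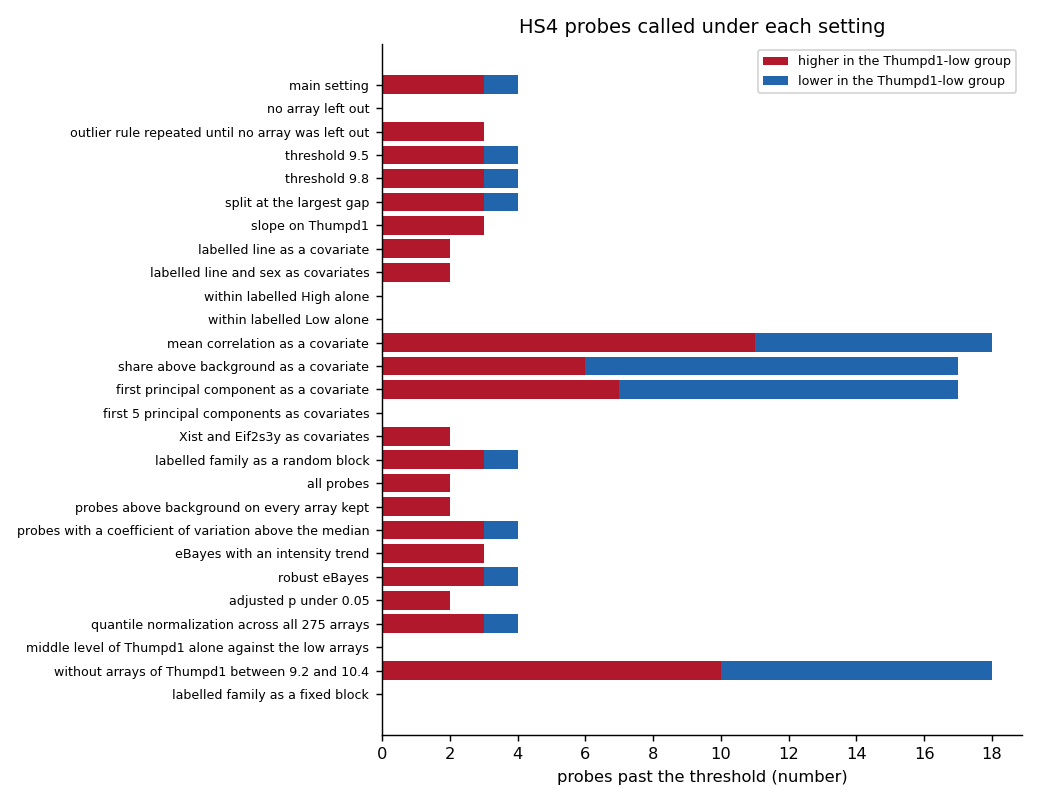
Number of HS4 probes past the threshold (horizontal bars) under the main setting and each of the 26 other settings, split by direction. The count is 4 in the main setting, 17 or 18 with a quality measure or the first principal component as a covariate, and 0 with all 96 arrays kept, within 1 labelled line or within labelled families.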

How the data were processed

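Per the submitters' processing notes and the study's methods, the authors processed the bead-array intensities of mouse striatum with lumi and quantile normalized them. The deposited values are on a log2 scale. Which of lumi's transformations made them (plain log2 or variance stabilizing) was not stated, so folds are approximate and differences of dim probes may be understated. Each selection had been normalized separately, so no level was compared between selections. Chip and scan date were not stated either, so neither was tested as a batch.

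Of 25697 probes 23978 had a gene symbol. A probe counted as expressed above the 95th percentile of 1341 receptor probes of its array on at least 25% of a selection's arrays (15219 in HS4). Gene order came from RefSeq's GRCm38.p6 table, and the files name no build, so no coordinates are given. HS4 arrays were compared with limma 3.58.1 in R 4.3.3 (lmFit and eBayes, Benjamini-Hochberg over 15218 probes without Thumpd1, threshold 0.1). Named were the called probes (up to 15 in each direction), the 10 nearest expressed genes on each side of Thumpd1, list members with the smallest p, Crym, Lcmt1 and the 10 probes most correlated with Thumpd1. Slopes in F2 and HS-CC had the labelled line as a covariate and left out arrays by the same rule, and slopes were compared between selections in 1 fit with the labelled line in each. The number of arrays limits the precision. On simulated data of the HS4 comparison (15218 probes) 97 of 100 probes changed by 0.5 and 67 of 100 changed by 0.2 were recovered, with 13 false calls. The simulated noise was independent between probes, and far more probes were changed than the 4 called in the data. Real probes share variation, among others with array quality, so recovery on the real arrays may be lower. Alternatives were other sets of arrays, thresholds, covariates, probe filters and normalization. The members and lists were chosen with earlier results of these data known.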

Additional observations from a re-analysis of the deposited data

Results flagged for a closer look

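For 3 transcripts the slope on Thumpd1 differed between HS4 and another selection by limma's test of that difference. That fit had the labelled line in each selection, and the HS4 labels may not match the arrays. For Ccng2 the HS4 slope lay below that of F2 by -0.46 ± 0.091 (SE; limma adjusted p = 0.00589), with a negative slope in HS4 and a positive one in F2. For Tmc7 the difference from F2 was -0.21 ± 0.039 (adjusted p = 0.00299), and for Ears2 the difference from HS-CC was -0.10 ± 0.027 (adjusted p = 0.0818). After quantile normalization of the 3 selections together the 3 differences were -0.47, -0.21 and -0.10 and all passed.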

How the results depend on the processing

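Thresholds of 9.5 and 9.8 and the split at the largest gap gave the same 38 low and 54 high arrays. These settings repeat the main fit and cannot test it. Labelled family as a random block had a within-family correlation of -0.01, so that its fit was close to the main one. The HS4 family labels may not match the arrays, so this correlation may not be that of true families. The count of 4 stayed within 1.5 times under the random block, the slope and the repeated rule on arrays (75 arrays, 3 calls). Under that rule 16% of probes had an unadjusted p under 0.05. The count also stayed within 1.5 times under the filter on variation, both eBayes settings and normalization across all arrays. It was 0 with all arrays kept, within labelled High or Low alone and with 5 principal components. It was 2 with the labelled line, line and sex, or Xist and Eif2s3y as covariates, with all probes, with probes above background on every array and at an adjusted p of 0.05. It was 18 with mean correlation as a covariate, 17 with the share above background and 17 with the first principal component. Of the settings chosen after seeing the data, the middle Thumpd1 level alone gave 0, labelled family as a fixed block gave 0 and leaving out the arrays at 9.47 to 10.33 gave 18. The cause of these shifts was not tested. Rbbp9 and Snx5 lost the call under 6 settings each, Ccng2 under 13 and Pop7 under 14, and none of the 4 changed direction. Of 93 uncalled probes followed through the settings 5 were called under another: those of Tasp1, Ddit3 and Gpm6a, the second Snx5 probe and the probe with no gene name. Neighbours and gene lists had no call in any setting or window tried. Without the line covariate, the count of slopes was 167 in F2 and 116 in HS-CC, and with all arrays kept it was 44 in F2 and 20 in HS-CC. After normalization across all arrays the slopes of 51 probes differed between HS4 and HS-CC, against 33 before, and of 7 between HS4 and F2. No paired analysis was possible because animal numbers that recur between groups belong to separate animals, and the comparison within labelled families is the one given above. The dim Snx5 probe, near background on many high arrays, limits what its level can show.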
